A study of Mus musculus with 6 samples.

Results

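The nuclear genes for the mitochondrial respiratory chain and ATP synthase were followed in 6 RNA sequencing libraries of mouse embryonic fibroblasts. The genes were taken by symbol: those starting with Nduf, Uqcr, Cox4 to Cox8 or Atp5, with Sdha, Sdhb, Sdhc, Sdhd and Cyc1, at 1 or more RPKM (reads scaled to exon length and to the size of the library) in at least 3 libraries, and with no pseudogene symbol. Of 100 symbols that matched, 86 were kept, out of 26231 genes in the table and 11067 genes past the same low-value filter. They were 37 genes of complex I, 8 complex I assembly factors (Ndufaf1 to Ndufaf8), 4 genes of complex II, 9 of complex III, 11 of complex IV and 17 of complex V. Of the 14 left out, 10 were below the filter and 4 carried a pseudogene symbol. Groups follow the symbols, so Ndufa4 stands with complex I although it is now known as a complex IV subunit.

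The fibroblasts came from FVB embryos with loxP-flanked Nf2 alleles (Nf2 fl/fl), of about 14 days by the labels, and were immortalized with SV40 large T antigen. The control line, labelled MEF WT, received a GFP lentivirus, and the other, labelled MEF Nf2 KO, received a lentivirus with GFP and Cre, both driven by a CMV promoter. Both lines derive from cells with the flanked alleles and carry the large T antigen and GFP, with Cre meant to remove the flanked part in MEF Nf2 KO, and both were kept for 24 h without serum before RNA was taken. Each line has 3 libraries, marked A (replicate 1), B (replicate 2) and 2018 (replicate 3). There is 1 line of each kind, and nothing states that the 3 libraries of a line came from separate cultures, so p-values measure the spread between these libraries, which may be technical.

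Complex I (NADH dehydrogenase) and complex II (succinate dehydrogenase) feed electrons to coenzyme Q, complex III passes them to cytochrome c, complex IV (cytochrome c oxidase) gives them to oxygen, and complex V (ATP synthase) uses the proton gradient so built to make ATP. Most subunits are encoded in the nucleus and a few core ones in mitochondrial DNA. Transcription of the nuclear subunits is known to draw on factors such as NRF1, GABPA and YY1, whose binding motifs are common in their promoters.

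By the steps of the low values, the libraries held 13438422, 18937004 and 61173734 reads in MEF WT and 18055998, 19259374 and 73013030 reads in MEF Nf2 KO, in the order A, B and 2018. Among values worth no more than 20 reads, 86.3% to 87.7% by library fell within 0.1 reads of a whole number, where chance gives 20%. Nf2 itself was at 14.3, 13.7 and 13.1 RPKM in MEF WT and at 15.4, 12.9 and 13.9 RPKM in MEF Nf2 KO (A, B, 2018), a log2 difference of 0.03 (exact permutation test over libraries, two-sided, p = 0.8, where the smallest possible p is 0.1). The targeted gene's RNA was thus no lower where the label says MEF Nf2 KO, and directions below follow the labels. Of 10 fibroblast markers, 9 passed the low-value filter. Vim, an intermediate filament gene, was at 536 to 882 RPKM. Among the lower markers, Pdgfra was at 5.22 to 12.3 RPKM in MEF WT and at 0.657 to 1.42 RPKM in MEF Nf2 KO. Dcn was at 1.6 to 4.01 RPKM in MEF WT and at 0.0266 to 0.133 RPKM in MEF Nf2 KO. Lum, under the filter, did not exceed 0.247 RPKM. Among markers of other cell types, 1 of 6 macrophage markers (Cd68) and 1 of 4 endothelial markers (Kdr) passed the filter. None of 6 skeletal muscle markers (Myod1 had no value) and none of 5 epithelial markers passed it. The muscle marker Acta1 still reached 6.25 RPKM in MEF WT replicate 2. Ptprc, Adgre1, Pecam1, Cdh5, Epcam and Cdh1 stayed at 0.216 RPKM or below in every library.

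Promoters of members that the results turn on are given first, as RefSeq holds them (GRCm38.p6, the mm10 assembly), upstream of the annotated start, 5′ to 3′ on the gene's strand and cut to the longest stretch without an annotated exon. Capitals mark the NRF1 motif, searched as GCGCA and GCGC with any base between. Ndufv3, a small accessory subunit of the NADH-oxidizing module, and Ndufaf4, an assembly factor, had the most stable of the differences described below, and Ndufb4, a membrane arm subunit, is shown beside them for its motif (chosen after the values were seen).
Ndufv3 (chr17:31519981-31520114, plus strand): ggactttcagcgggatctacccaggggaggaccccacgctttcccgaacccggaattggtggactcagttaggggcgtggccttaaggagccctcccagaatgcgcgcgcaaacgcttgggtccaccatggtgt
Ndufb4 (chr16:37654454-37654618, minus strand): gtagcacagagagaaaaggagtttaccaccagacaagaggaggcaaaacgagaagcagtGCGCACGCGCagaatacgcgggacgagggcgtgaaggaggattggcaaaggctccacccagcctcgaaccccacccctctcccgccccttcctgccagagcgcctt
Ndufaf4 (chr4:24897833-24898082, plus strand): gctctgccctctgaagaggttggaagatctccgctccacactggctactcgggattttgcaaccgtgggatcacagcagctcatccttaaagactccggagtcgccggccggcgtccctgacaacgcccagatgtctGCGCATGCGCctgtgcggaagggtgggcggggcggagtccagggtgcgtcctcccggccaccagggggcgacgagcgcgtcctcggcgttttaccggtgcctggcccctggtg
Counted from the start of the gene, the motif lay at -113 to -104 in Ndufaf4 and at -191 to -182 in Ndufb4, and it did not occur in the stretch shown for Ndufv3. Further matches in Ndufb4, at -79 and -22, lie in an annotated exon and are not shown. Promoters of 300 bases (250 before the start and 50 after) were found for 72 of the 86 members. On either strand, the NRF1 motif stood in 19 of them (26.4%), against 5.19% of all 27025 genes with a promoter. These include genes under the low-value filter, and the share among expressed genes alone was not counted. The ETS motif CCGGAAG, bound by GABPA, stood in 18 (25.0% against 9.93%), and the YY1 motif AAGATGGCG in 8 (11.1% against 1.64%). At least 1 of these motifs, which were searched separately and may overlap, stood in 38 members (52.8% against 15.1% of all genes with a promoter). The members' promoters had a median GC content of 58.8%, against 52.8%. A match describes these letters only, and GC-rich motifs are met more often in GC-rich promoters.

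The members were among the more abundant messengers of these cells. Their values summed to 4138.6 to 4803.1 RPKM in the 6 libraries, 1.62% to 1.82% of each library's total, and the median member had 36.9 RPKM, against 7.62 RPKM over all genes past the filter. Atp5b, the catalytic beta subunit of ATP synthase, was highest, at 263 to 308 RPKM. Cox8a, a small complex IV subunit, followed at 241 to 293 RPKM and Cox6a1 at 195 to 241 RPKM. The ranges of Atp5b and Cox8a overlapped, so their order is not settled by these libraries. The highest member of complex I by symbol was Ndufa4 at 96.4 to 129 RPKM, of complex II Sdhd, a membrane anchor, at 63.7 to 74.2 RPKM, and of complex III, by its mean, Uqcr11 at 79.5 to 103 RPKM. Uqcr10, at 76.3 to 99.4 RPKM, overlapped Uqcr11, so the order of these genes is not settled either. The lowest members were Ndufaf3 at 0.80 to 2.47 RPKM and Atp5s, coupling factor B, at 1.06 to 2.85 RPKM. Assembly factors of complex I had a median of 5.03 RPKM and its subunits 33.2 RPKM.

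**Figure D1:**
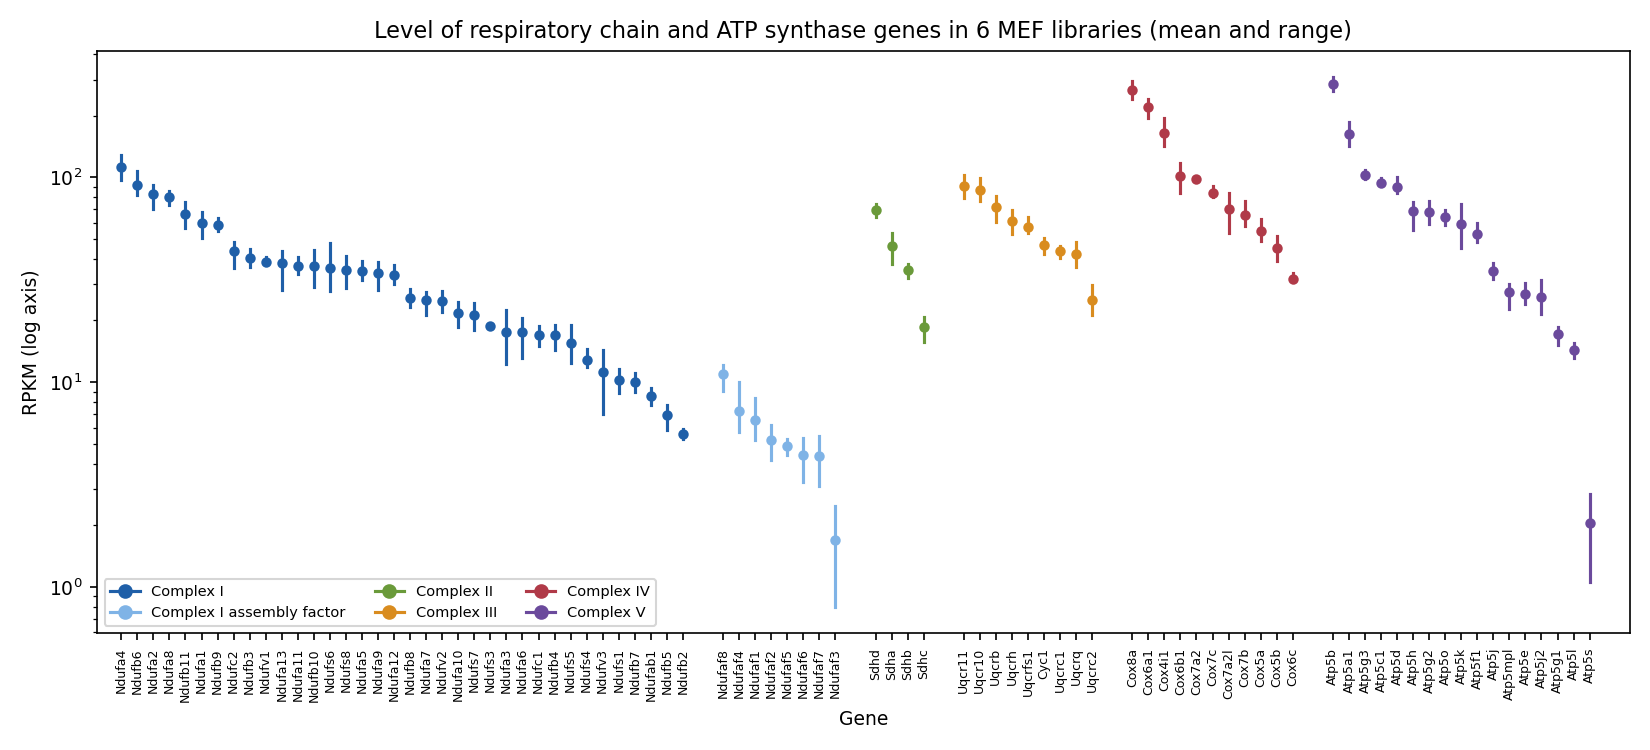
Level of 85 members in RPKM on a log axis, grouped by complex, with the mean and the range over the 6 libraries for each gene. Most subunits lie between 10 and 300 RPKM, with Atp5b highest (263 to 308 RPKM), while the complex I assembly factors have a median of 5.03 RPKM.

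Several subunits have a second isoform that is used in other tissues, and here the widely expressed isoform was the one measured. Cox4i1 was at 142 to 195 RPKM, while Cox4i2, its lung and hypoxia-responsive isoform, did not exceed 0.145 RPKM. Cox6a1 was at 195 to 241 RPKM and its muscle and heart isoform Cox6a2 at no more than 0.072 RPKM. Cox8a was at 241 to 293 RPKM and Cox8b at no more than 0.154 RPKM, from 1 library with 1 read. Cox7a2 was at 94.9 to 100 RPKM, against at most 1.43 RPKM for the muscle isoform Cox7a1, and Cox6b1 at 83.9 to 118 RPKM, against at most 1.24 RPKM for the testis isoform Cox6b2. Ndufa4l2, a hypoxia-induced relative of Ndufa4, did not exceed 0.193 RPKM. The isoforms of the membrane ring of ATP synthase were all present, Atp5g1 at 15.2 to 18.6, Atp5g2 at 59.4 to 76.6 and Atp5g3 at 97.6 to 108 RPKM, with no overlap between them. Genes with similar copies are less certain: 40.2% of the 31-base stretches of Atp5g2 and 32.4% of those of Uqcrb occur in another gene, against a median of 2.2% over the members.

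No member of the respiratory chain or ATP synthase passed the threshold between the lines. With limma over all 11067 genes, 0 of 86 members had an adjusted p under 0.05, while 117 genes did (1.06%; 0.479% higher and 0.578% lower in MEF Nf2 KO). At an unadjusted p under 0.05 it was 1 member (1.16%), Ndufa1, against 9.91% of all genes, and voom, run in limma on the recovered reads, also called 0 members, with 0 below the same unadjusted level. Blocking on the replicate number let 833 genes pass (7.53%; 2.99% higher and 4.54% lower), and again 0 of the 86 members. Of the members, 7 had an unadjusted p under 0.05 in the blocked fit (8.14%, against 23.2% of all genes), and their smallest adjusted p was 0.0842. The median log2 difference of the members (MEF Nf2 KO minus MEF WT) was -0.025, against -0.008 over all genes, and single members lay between -0.27 and 0.22, with 57 of 86 negative (66.3%, against 52.1% of all genes). This sign depends on single libraries: the median was 0.024 with 38 members negative without MEF Nf2 KO replicate 2, 0.003 with 41 negative without MEF WT replicate 3, and 0.017 with 36 negative without replicate 1 of both lines. The means of the libraries labelled MEF Nf2 KO were 82.8% to 119% of those of MEF WT.

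The intervals say how much the lines could differ. The 95% interval of every one of the 86 members lay within 1 on the log2 scale, that of 72 members within 0.5, and the widest bounds were -0.824 and 0.776. In simulated libraries with this spread, 0% of 200 genes changed by a log2 fold of 0.5 were recovered in this comparison and 66.5% of those changed by 1, and with the replicate block 0% and 78.5%. At an adjusted p under 0.05, differences of the size seen in the members were thus seldom detectable in the simulated libraries. The real blocked fit called 833 genes, some of them at differences under 0.5, so the simulation does not set its limit. All differences are of log2(RPKM + 1), a scale on which low genes such as Ndufaf3 appear to change less than they do.

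**Figure D2:**
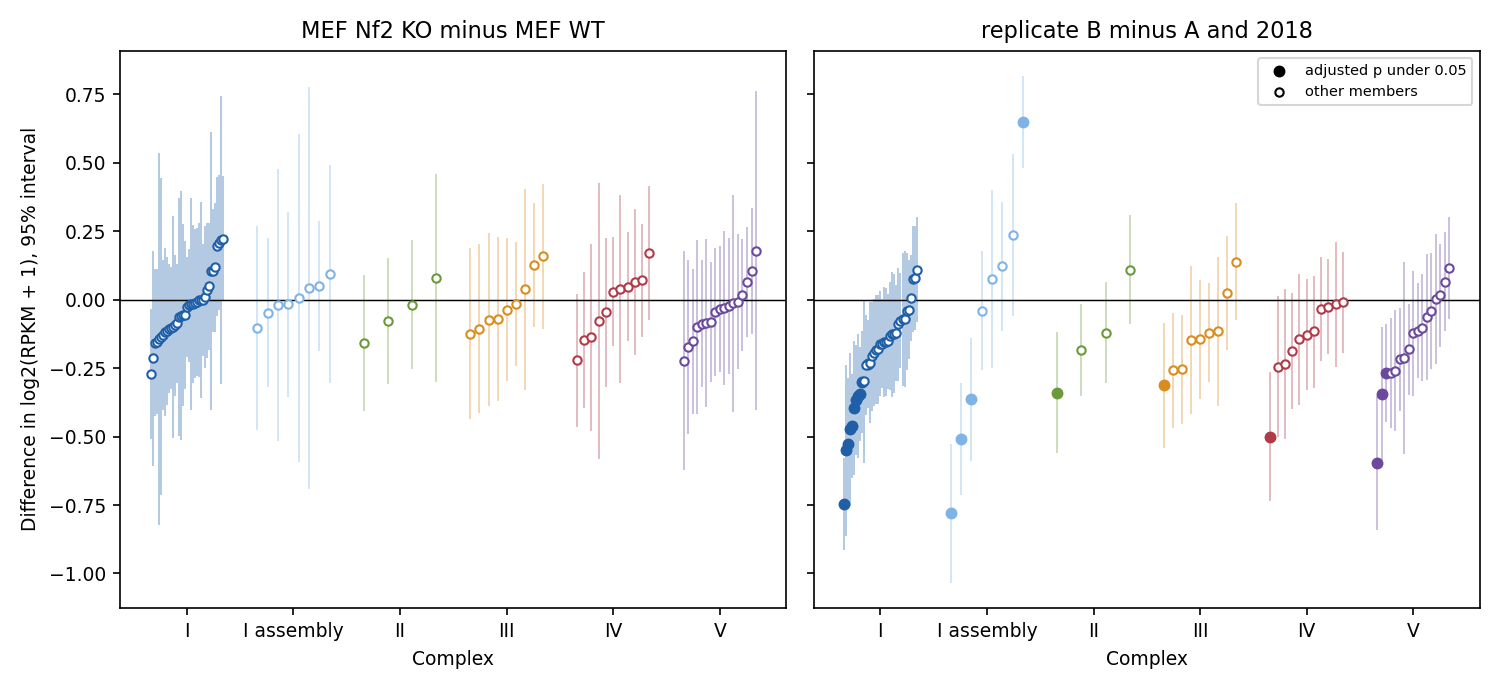
Log2 difference of each member, by complex, for MEF Nf2 KO minus MEF WT and for replicate B minus the A and 2018 libraries, on the log2(RPKM + 1) scale, with 1 point for each gene. The line differences stay between -0.27 and 0.22, and those of replicate B reach from -0.78 (Ndufaf3, under the low-value filter in both B libraries) and -0.75 (Ndufv3) to 0.65 (Ndufaf4).

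Summed by complex, the lines were close. Complex I subunits summed to 1314 ± 97.5 RPKM in MEF WT and 1309 ± 108 in MEF Nf2 KO (SD, n = 3 each), 99.6% of the control. For complex II the sums were 171 ± 7.38 and 169 ± 9.39 RPKM (98.6%), for complex III 527 ± 30 and 523 ± 49.1 RPKM (99.2%), for complex IV 1204 ± 69.8 and 1201 ± 113 RPKM (99.7%), and for complex V 1217 ± 64.4 and 1174 ± 69.2 RPKM (96.5%). In each of these groups the difference between the means was smaller than the SD of either line. The 13 subunits encoded in mitochondrial DNA summed to 10160 ± 918 and 10700 ± 941 RPKM, and none of them passed the threshold between the lines (0 at an unadjusted p under 0.05). In bulk RNA, a lower level per cell and fewer cells that express a gene cannot be told apart.

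Ndufa1, a small membrane arm subunit of complex I encoded on the X chromosome, had the largest fall between the lines. It was at 64.5, 64.1 and 67.8 RPKM in MEF WT and at 51.9, 50.7 and 59.98 RPKM in MEF Nf2 KO (A, B, 2018). The lines did not overlap, with every control library higher, and the log2 difference was -0.27 ± 0.10 (SE, limma adjusted p = 0.403; 0.0842 with the block). Cox7b, a complex IV subunit also on the X chromosome, was at 76.4, 65.7 and 69.2 RPKM in MEF WT and at 58.1, 57.7 and 65.0 RPKM in MEF Nf2 KO. Its lines did not overlap either, but the log2 difference of -0.22 ± 0.10 did not pass (limma adjusted p = 0.574). The last of the 3 members on the X chromosome, Ndufb11, differed by -0.056, and its lines overlapped. Atp5k, the e subunit of ATP synthase, spanned 54.9 to 74.2 RPKM in MEF WT and 45.3 to 64.5 RPKM in MEF Nf2 KO, so that the lines overlapped. The other large falls were those of Ndufa13 (-0.21) and Atp5h (-0.17), both with overlapping lines.

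On the other side, Ndufb6, an accessory subunit in the membrane arm, was at 81.7, 85.8 and 86.1 RPKM in MEF WT and at 95.04, 108 and 94.1 RPKM in MEF Nf2 KO, with a log2 difference of 0.22 ± 0.096 (SE, limma adjusted p = 0.519). All 3 libraries labelled MEF Nf2 KO were above all controls, but 39.0% of its exon bases are also exons of Smim27 and their reads may be mixed. Ndufa4 was at 111, 96.4 and 104 RPKM in MEF WT and at 129, 112 and 120 RPKM in MEF Nf2 KO, again with no overlap (log2 difference 0.21, limma adjusted p = 0.623). Ndufa9 (0.20) and Cox5a (0.17) followed, of which only Ndufa9 had lines that did not overlap. In all, 7 of 86 members had lines that did not overlap (8.14%, against 15.1% of all genes), 4 of them higher in MEF Nf2 KO (Ndufa4, Ndufa9, Ndufb6 and Atp5g3, where all genes gave 7.6%) and 3 lower (Ndufa1, Cox7b and Ndufs3, where all genes gave 7.52%).

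Line differences of central subunits are given with their 95% intervals. The difference of Ndufs1, the large iron-sulfur subunit of complex I, was -0.002 (-0.284 to 0.280), and that of Ndufv1, which binds NADH and FMN, was -0.021 (-0.226 to 0.185). Sdha, the flavoprotein of complex II, was at 0.079 (-0.301 to 0.459) and Sdhb, its iron-sulfur subunit, at -0.079 (-0.309 to 0.151). In complex III, the core protein Uqcrc1 was at -0.016 (-0.243 to 0.212), the Rieske protein Uqcrfs1 at 0.126 (-0.10 to 0.353) and Cyc1, cytochrome c1, at -0.037 (-0.298 to 0.225). In complex IV, Cox4i1 stood at 0.040 (-0.305 to 0.384) and Cox5a at 0.172 (-0.073 to 0.417), and the alpha and beta subunits of ATP synthase, Atp5a1 and Atp5b, at -0.099 (-0.418 to 0.220) and -0.044 (-0.278 to 0.190). None of these intervals reached a difference of 0.5, and all of them held 0.

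**Figure D3:**
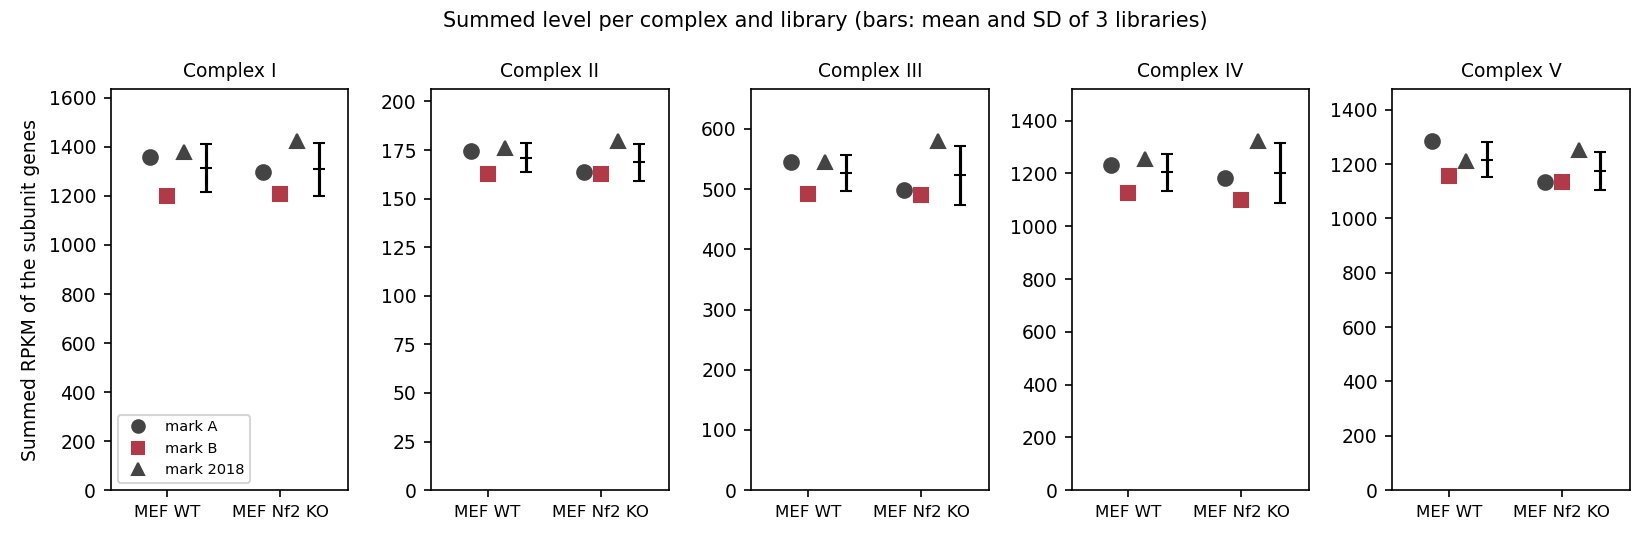
Summed RPKM of each complex in each library, with the libraries marked A, B and 2018 drawn apart and bars for the mean and SD of the 3 libraries of a line. The lines overlap in every panel, and the 2 libraries marked B are the lowest for complexes I to IV (88.3%, 93.8%, 90.7% and 89% of the mean of the others) but not for complex V.

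Replicate B was compared with A and 2018 with the line as a term, 2 libraries against 4. In this comparison 21 of 86 members passed the threshold (24.4%), against 3386 of all genes (30.6%). They were 20 lower (23.3%, against 19.8% of all genes) and 1 higher (1.16%, against 10.8%). The 20 include Ndufaf3, which was under the low-value filter in both B libraries and passed it only through the other 4; the other 85 members were at 1 RPKM or more in all 6 libraries. At an unadjusted p under 0.05 it was 32 members, against 44.2% of all genes. The median difference of the members was -0.149, against -0.078 over all genes, and 71 of 86 were negative (82.6%, against 61%). In 62 members (72.1%) the difference of replicate B was larger in size than that of the lines, a share close to the 67.7% of all genes. The summed level of the members in replicate B was 90.6% of that in the other libraries.

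By complex, 11 of 37 complex I subunits were lower (29.7%, against 19.8% of all genes) and none higher (against 10.8%), and of its 8 assembly factors 3 were lower and 1 higher. Complex I and its factors also hold most of the members, and no test compared the complexes. In complexes II, III and IV 1 member each fell (Sdha of 4, Uqcrc2 of 9 and Cox7a2l of 11), and in complex V 3 of 17 (Atp5s, Atp5j2 and Atp5mpl). With median centring, 6 complex I subunits passed (16.2%, against 13.9% of all genes lower), with none of complexes II and III and 1 each of complexes IV and V. Quantile normalization called 11 of complex I (29.7%, against 12.8%), 1 of complex II, 2 each of complexes III and IV and 5 of complex V, all lower. In all 21 called members the 4 differences of a B library from the A and 2018 libraries of its own line had the called sign, and in 20 of them both B libraries lay outside the range of the other 4. Ndufa13 was the exception. Among all members, 34 had both B libraries below the other 4 (39.5%, against 29.8% of all genes) and 3 above (3.49%, against 16.8%).

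These calls depend on the scaling and on the B libraries. With each library centred on its median, 12 of the members passed, 11 lower (12.8%, against 13.9% of all genes) and 1 higher, all of them among the 21, and the median difference was -0.078. With quantile normalization 24 passed (27.9%, against 26.8% of all genes), 23 of them lower (26.7%, against 12.8%). Whether the members fell more often than other genes thus turns on the scaling. The same centring raised the share of higher genes among all calls from 35.3% to 52.5%. Without MEF WT replicate 2 or without MEF Nf2 KO replicate 2, 3 members passed (3.49%, against 7.52% and 6.32% of all genes), and without MEF WT replicate 3, 10 (11.6%, against 20.9%). Ndufv3 and Ndufaf4 passed in all 16 alternatives, and the other 19 in 3 to 14 of them. What sets the B libraries apart beyond the mark is not stated in the labels, and culture, RNA handling and library cannot be told apart.

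**Figure D4:**
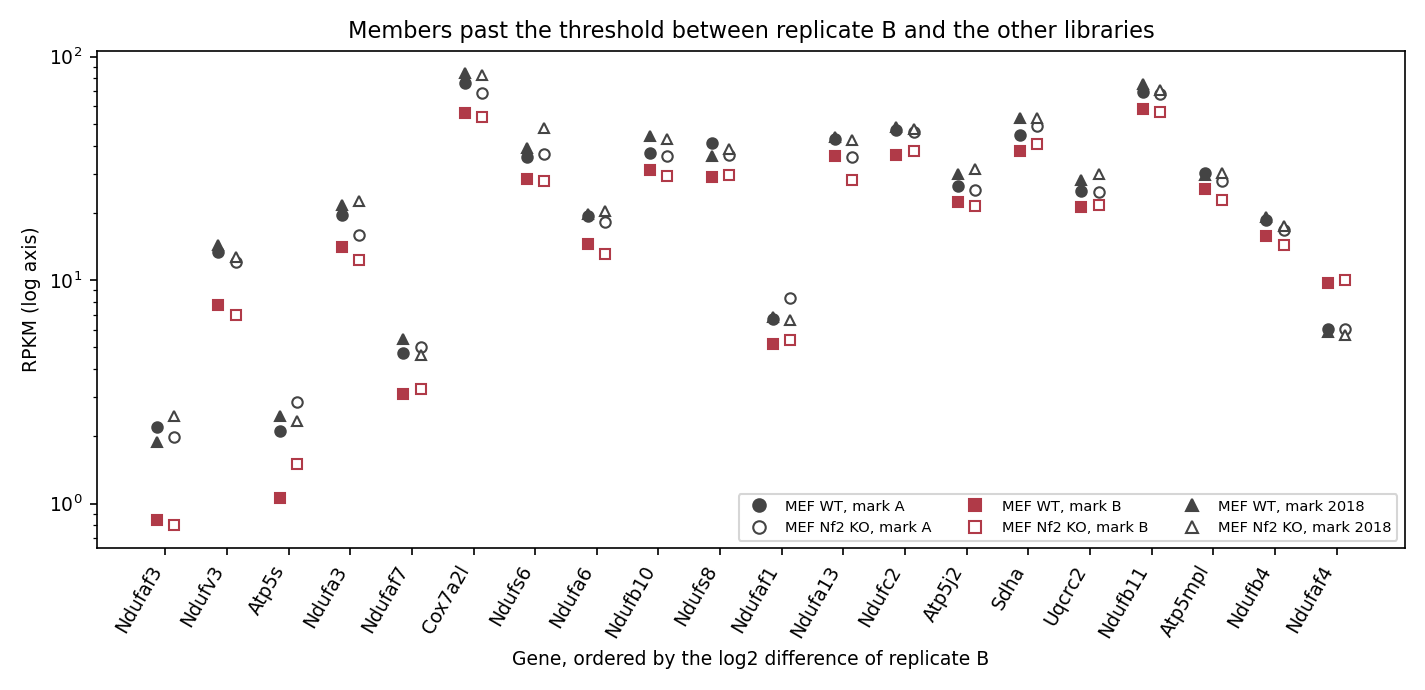
RPKM on a log axis of 20 of the members past the threshold in replicate B, in all 6 libraries, ordered by their log2 difference. The B libraries of both lines lie below the others for 18 of the 19 lower members drawn (Ndufa13 overlaps) and above them for Ndufaf4.

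Ndufv3 was the clearest fall. It was at 13.3, 7.77 and 14.3 RPKM in MEF WT and at 12.03, 7.0 and 12.6 RPKM in MEF Nf2 KO (A, B, 2018). Both B libraries were well below the other 4, at 56.5% of their mean, with a log2 difference of -0.75 ± 0.071 (SE, limma adjusted p = 0.00131). Ndufs8, a core subunit that holds iron-sulfur clusters, fell by 0.37, and Ndufs6, a zinc-binding accessory subunit, fell by 0.47 on the log2 scale. The accessory subunits Ndufa3 (-0.55), Ndufa6 (-0.46), Ndufb10 (-0.40), Ndufa13 and Ndufc2 (-0.35 each), Ndufb11 (-0.30) and Ndufb4 (-0.24) fell as well. With median centring Ndufs6, Ndufb10, Ndufa13, Ndufb11 and Ndufb4 did not pass, and Ndufb4 passed in only 3 of 16 alternatives. Reads may be mixed in Ndufa13 and Ndufb11, which share 30% and 12.9% of their exon bases with Tssk6 and Rbm10. In contrast, Ndufs1 (-0.21, limma adjusted p = 0.101) and Ndufv1 (-0.04, 95% interval -0.218 to 0.145) did not pass.

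The assembly factors of complex I went in opposite directions. Ndufaf3 and Ndufaf4 are known to act together in building the module that holds the coenzyme Q site. Ndufaf4 was at 6.02, 9.70 and 5.86 RPKM in MEF WT and at 6.06, 9.99 and 5.71 RPKM in MEF Nf2 KO, higher in both B libraries than in all others (167% of their mean, log2 difference 0.65 ± 0.071, limma adjusted p = 0.00184). Ndufaf3 was at 2.21, 0.843 and 1.88 RPKM in MEF WT and at 1.98, 0.80 and 2.47 RPKM in MEF Nf2 KO. Its B libraries were lowest, at a log2 difference of -0.78, but its lowest value rests on 28 reads. It reached the 1 RPKM filter through the 4 other libraries alone, so it had to be lower in replicate B and its call is no evidence of a difference. Ndufaf7, a methyltransferase needed for complex I assembly, fell by 0.51, as did Ndufaf1, a factor for the membrane arm, by 0.36. The other 4 factors did not pass, at -0.04 for Ndufaf5, 0.08 for Ndufaf2, 0.12 for Ndufaf8 and 0.24 for Ndufaf6.

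Outside complex I, Cox7a2l had the largest fall of a member with a mean of at least 5 RPKM. This protein links complexes III and IV into supercomplexes. It was at 76.4, 55.9 and 84.2 RPKM in MEF WT and at 68.6, 53.5 and 83.2 RPKM in MEF Nf2 KO, lower in both B libraries (-0.50 ± 0.10, limma adjusted p = 0.0119). Its relative Cox7a2 differed by -0.01 (95% interval -0.196 to 0.175). Sdha was at 44.5, 37.8 and 53.0 RPKM in MEF WT and at 48.7, 40.5 and 53.3 RPKM in MEF Nf2 KO, with a log2 difference of -0.34 ± 0.094 (limma adjusted p = 0.0333). The other subunits of complex II did not pass, Sdhd among them with 0.11 (95% interval -0.089 to 0.310). Uqcrc2, a core protein of complex III of whose exon bases 19.7% also belong to Pdzd9, fell by 0.31, while its partner Uqcrc1 stood at 0.02 and Cyc1 at 0.14 without passing.

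In complex V, Atp5s was at 2.11, 1.06 and 2.46 RPKM in MEF WT and at 2.85, 1.5 and 2.35 RPKM in MEF Nf2 KO, a log2 difference of -0.60 ± 0.11 (limma adjusted p = 0.00746). Atp5j2, the f subunit, fell by 0.34 and Atp5mpl, a small proteolipid, fell by 0.27, but neither passed with median centring. The catalytic beta subunit Atp5b did not pass (0.00, 95% interval -0.235 to 0.239), Atp5a1 was at -0.26 (limma adjusted p = 0.0736) and Atp5f1, the b subunit, at 0.12 (95% interval -0.070 to 0.303). The ring genes Atp5g1, Atp5g2 and Atp5g3 stood at -0.04, -0.12 and 0.02, and none of them passed. Of the 21 called members, 18 had a promoter in RefSeq, and 5 of these held the NRF1 motif, a share like the 26.4% of all members with a promoter. Among them were Ndufaf4, which rose, and Ndufb4, which fell.

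The difference between the lines was not shown to depend on the replicate mark. The interaction of line and replicate B passed in 0 of 86 members with limma (0 at an unadjusted p under 0.05, smallest unadjusted p 0.141), and 0 with voom. It passed in 0 of 11067 genes, of which 2.83% had an unadjusted p under 0.05. This fit leaves few degrees of freedom, so it has little power.

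Other mitochondrial genes gave 0 calls between the lines in limma without the block in each list used here, with at most 4 of 78 at an unadjusted p under 0.05 (the mitochondrial ribosomal proteins). With the replicate block, Sco2 (-0.44, limma adjusted p = 0.0485) and Uqcc2 (-0.33, 0.0481) of the assembly factors outside the symbol rule, Mrps6 (-0.67, 0.0195) of the mitochondrial ribosomal proteins and Cycs (0.31, 0.0487) passed between the lines, the only calls in these lists. That was 2 of 37 assembly factors, 1 of 78 mitochondrial ribosomal proteins and 1 of 11 cytochrome c and coenzyme Q genes. Of all genes, 7.53% passed in that fit. In replicate B the lists gave these counts. Of 37 assembly factors outside the symbol rule, 5 fell and none rose (13.5% lower, against 19.8% of all genes), while median centring gave 2 of each. Cox20, which helps insert the mitochondrially encoded subunit mt-Co2 into complex IV, was at 10.6, 4.63 and 12.5 RPKM in MEF WT and at 10.6, 5.56 and 11.5 RPKM in MEF Nf2 KO (A, B, 2018; log2 difference -1.01 ± 0.10, limma adjusted p = 0.00152). Of the 13 subunits encoded in mitochondrial DNA, mt-Co2 was the only one past the threshold in replicate B, at 73.2% of the level in the other libraries (-0.45 ± 0.11, limma adjusted p = 0.0236). With median centring none of the 13 passed, and with quantile normalization 1 did, lower. The 13 together summed to 88.4% of their level in the other libraries.

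Of 17 outer membrane and import genes, 5 rose (29.4%, against 10.8% of all genes) and 1 fell (5.88%, against 19.8%) in replicate B, led by Timm10, a chaperone of the intermembrane space (0.88 ± 0.13, limma adjusted p = 0.00474), and Tomm70a, an import receptor (0.61 ± 0.080, limma adjusted p = 0.00313). Of 17 regulators of mitochondrial transcription, replication and biogenesis, 3 rose (17.6%), namely Pprc1 (0.45), Nrf1 (0.31) and Tfam (0.25), and Tfb1m fell by 0.35. Of 11 genes for cytochrome c and coenzyme Q synthesis, 2 rose (Pdss1 by 0.64 and Cycs, cytochrome c, by 0.40) and 2 fell (Coq9 and Coq8b). The median differences of these 3 lists were 0.153, 0.084 and -0.205. With median centring 5 import genes (29.4%) and 4 regulators (23.5%) rose, against 15.3% of all genes, and none of either list fell, against 13.9%. Among 14 enzymes of the tricarboxylic acid cycle, 1 rose (7.14%, against 10.8% of all genes) and 3 fell (21.4%, against 19.8%). Idh3a rose by 0.43, and Idh2 was at 48.03% of its level in the other libraries (-1.02 ± 0.14, limma adjusted p = 0.00408). With median centring 1 enzyme rose and 1 fell (7.14% each, against 15.3% and 13.9% of all genes).

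Of 78 mitochondrial ribosomal proteins, 6 rose and 7 fell (7.69% and 8.97%, against 10.8% and 19.8% of all genes, with a median of -0.037). Of 80 cytosolic ribosomal proteins 1 rose and 3 fell (1.25% and 3.75%, with a median of -0.166). The fall of the cytosolic ones depends on the scaling. With quantile normalization 11 fell (13.8%, against 12.8% of all genes) and with median centring 1 did (1.25%, against 13.9%). Of 14 hypoxia targets, 1 rose and 3 fell (7.14% and 21.4%; median -0.108), and 0 passed between the lines in limma, with 6 at an unadjusted p under 0.05. The fit blocked by replicate called 6 of the 14, against 7.53% of all genes, Adm higher (0.89) and 5 lower, led by Bnip3 (-1.02) and Pdk1 (-0.70). No test compared these lists with the members, and the lists were chosen with earlier results known.

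**Figure D5:**
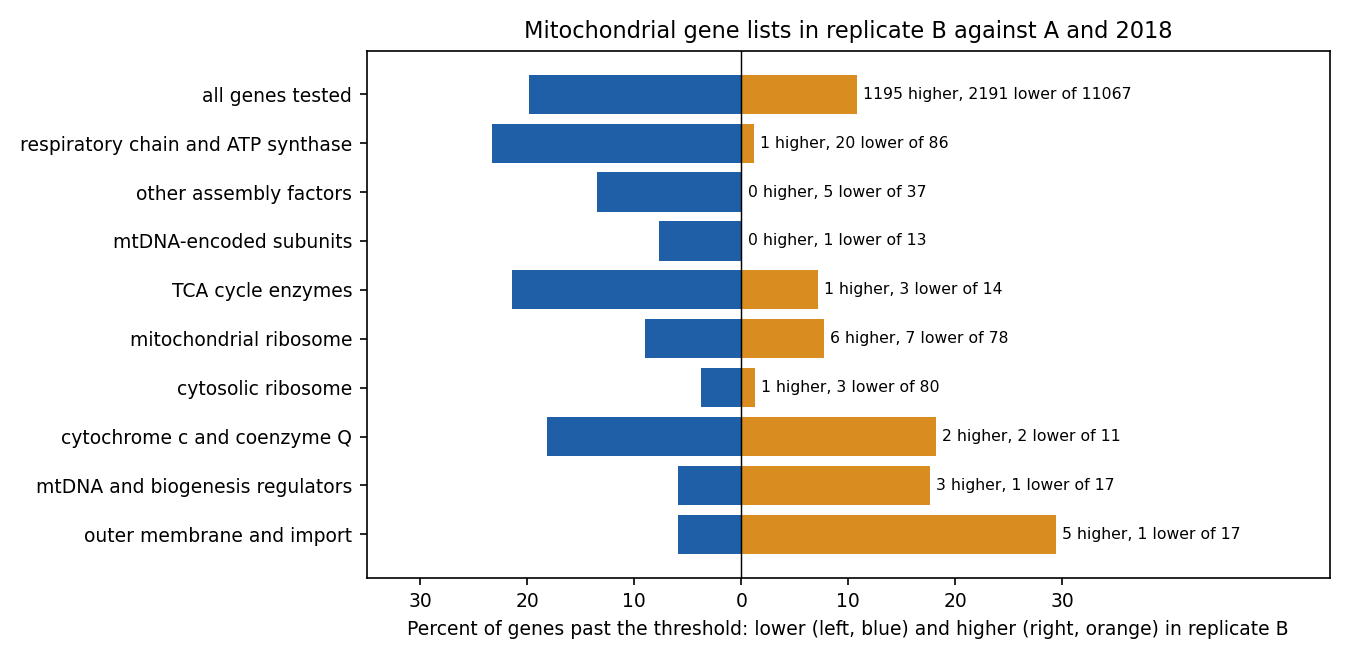
Percent of the genes of each list past the threshold in replicate B, lower to the left and higher to the right, for the members and the other lists, beside all genes tested. The members show 20 of 86 lower and 1 higher, outer membrane and import genes 5 of 17 higher and 1 lower, and all genes 19.8% lower and 10.8% higher.

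Markers moved with the replicate mark too. Of 9 fibroblast markers tested, 5 fell in replicate B (against 19.8% of all genes) and none rose (1 with median centring), and 3 fell between the lines (against 0.578%; 5 with the replicate block, against 4.54%). The line counts include Dcn, which met the low-value filter only through the MEF WT libraries, so its call is no evidence of a difference. The markers summed to 1850 and 1440 RPKM in the B libraries (MEF WT, MEF Nf2 KO), against 2210 and 2550 RPKM in the other MEF WT libraries and 1650 and 1880 RPKM in the other MEF Nf2 KO libraries. Col3a1, a collagen gene, was at 15.3 and 6.95 RPKM in the B libraries and at 29.8 to 82.1 RPKM in the others. Kdr, an endothelial receptor, was at 3.75 and 4.39 RPKM in replicate B and at 1.32 to 1.74 RPKM elsewhere, while Pecam1 and Cdh5 were at 0.1 RPKM or below in all 6 libraries. The skeletal muscle markers summed to 6.63 and 3.11 RPKM in replicate B and to 0.831 to 1.20 RPKM in the others. Acta1, an actin gene, made up 6.25 and 2.57 RPKM of the sums in replicate B and was at 0.252 to 0.606 RPKM elsewhere, with Myh3 at 0 in both B libraries. The macrophage markers summed to 7.05 and 7.5 RPKM in replicate B and to 6.01 to 8.62 RPKM in the others, and the epithelial markers to at most 0.850 RPKM in any library. The part of these marker changes in the members' differences was not tested.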

How the data were processed

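RNA of immortalized mouse embryonic fibroblasts was sequenced by GENEWIZ in 6 libraries, and the authors deposited 1 table of 26231 genes with a value per gene and library, taken here as RPKM. The unit was inferred from how the values behave, and the aligner, counter and annotation are not given in the sources used here; the submitters' processing notes name mm10. Reads were recovered from the steps of low values with exon lengths from GENCODE M21.

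Groups came from the labels. Values were set to log2(RPKM + 1), the filter was 1 RPKM or more in at least 3 libraries (11067 genes left), and limma 3.58.1 in R 4.3.3 (trend and robust settings) was run over all of them, as a two-sided test. Calls are Benjamini-Hochberg adjusted p-values under 0.05. The line comparison had no covariate, the replicate B comparison had line as a term, and their interaction was fitted. On simulated data for the same 11067 genes, 81.5% of 200 genes changed by a log2 fold of 1 were recovered in the replicate B comparison and 30% at 0.5. The real comparison called 3386 genes, so these shares may not hold for it.

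Libraries with the same number in both lines departed from their line's mean together, with r across genes of 0.552, 0.819 and 0.516 for replicates 1, 2 and 3. Departures from a line's mean cancel out within the line, so a shift shared by the B libraries alone also raises r for replicates 1 and 3. Whether the A and the 2018 libraries pair by number is thus not shown, and the replicate block, which treats them so, was tried as an alternative. The members, lists and tests were chosen with earlier results of these data known. Genes named are the 5 largest rises and falls in each comparison at a mean of at least 5 RPKM, the highest member and the core subunits of each complex, isoform groups, and up to 2 rises and 2 falls of each other list; the rest of the called members and the other markers were named after their values were seen. The values of 1 member, which stays in all counts and sums, are not reported here. Promoters came from RefSeq (GRCm38.p6), and figures were drawn with matplotlib 3.10.9.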

Additional observations from a re-analysis of the deposited data

How the results depend on the processing

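Between the lines, 0 of the members tested passed in any setting tried (86 members, or 82 with a filter of 5 RPKM), and the members' median moved by less than the spread between pairs, though it turned positive in 3 of the settings that left libraries out (range -0.093 to 0.024). Over all genes the line calls (117) went to 9 without a low-value filter, 63 with a filter of 5 RPKM, 62 with the 2018 mark as a covariate and 833 with the replicate block, and leaving out a library or a replicate number gave 0 to 484. The block, which treats same-numbered libraries as pairs, changed no member's call. In replicate B, the 21 members past the threshold went to 12 with median centring, 3 without a filter and 12 against A only, and leaving out a library gave 3 to 25; the members' median went to -0.078 with median centring. Over all genes the 3386 calls went to 884 without a filter and 1976 without the line term, and leaving out a library gave 699 to 3375. Counts of the lists and complexes under other scalings were added after seeing the data. The interaction could not be estimated without a B library. Single-gene values under the alternatives were counted only for Nf2 and the members named by the rule above. Of these values, 1622 kept their direction and side of the threshold, 30 lost a call, 13 gained one and 0 reversed. The count leaves out most of the called members, such as Ndufb4, which passed in only 3 of 16 alternatives in replicate B. The depth limits Ndufaf3 most, with 28 reads in the lowest library. The cause of these changes was not tested, except that leaving out libraries leaves fewer samples.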
